A study of Mus musculus with 6 samples.

Results

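The nuclear-encoded subunits of oxidative phosphorylation (OXPHOS) were examined complex by complex. Members were taken by gene symbol, as the Nduf genes of the a, b, c, s and v series, the 4 Sdh genes, all Uqcr genes, Cyc1, Cycs, the Cox4 to Cox8 families and all Atp5 genes, with names ending in -ps left out. This gave 85 of the 49315 genes in the count table. Of these, 35 belonged to complex I, 4 to complex II, 9 to complex III, 20 to complex IV and 16 to complex V, and 1 encoded the electron carrier cytochrome c. Ndufa4 and Ndufa4l2 were placed with complex IV, where the NDUFA4 protein resides, and Atp5s was kept with complex V as an associated factor. Of the 85 members, 83 passed the filter on low counts. The other two, Cox7b2 and Cox8c, isoforms known from testis, had 0 counts in every library, which allows up to 0.0691 CPM (counts relative to a library's total, scaled to a common size) in the shallowest of them (3 counts of the total, counting error alone).

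In OXPHOS, complexes I and II pass electrons from NADH and succinate to ubiquinone, complex III passes them on to cytochrome c, and complex IV reduces oxygen. Complexes I, III and IV pump protons across the inner mitochondrial membrane, and complex V, the ATP synthase, lets them return and makes ATP. Most subunits are encoded in the nucleus and are imported, whereas mitochondrial DNA (mtDNA) encodes a small set in every complex except II, and oxidative muscle fibres hold more of all of them than glycolytic fibres.

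The muscle was the gastrocnemius of male C57BL6J mice, injected at 5 months of age with AAV9, an adeno-associated virus, and harvested 5 months later. AAV9-HSA-CAAHR delivered the aryl hydrocarbon receptor (AHR) without its ligand-binding domain, which is active without ligand, and AAV9-HSA-GFP delivered green fluorescent protein. The promoter of both vectors, from the human skeletal actin gene (HSA), limits expression to muscle fibres among the cells of the tissue. There were 3 libraries per group, AAV9-HSA-CAAHR replicates 31, 34 and 36 and AAV9-HSA-GFP replicates 42, 43 and 46, and the comparison asked whether fibre-restricted AHR activity came with altered transcripts for the respiratory chain. Uninjected muscle was not analysed here.

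Libraries held 43432994 to 58825752 counts, and the members took 1.58% to 2.15% of them. Ahr, the delivered gene, and 5 of its targets were all called higher in AAV9-HSA-CAAHR muscles. Of the marker lists, 1 of 9 slow-fibre genes was called higher, and 3 of 10 fast-fibre, 3 of 8 tested adipocyte and 3 of 6 B cell genes were called lower (all genes, 7.6% in either direction). Over all 15847 tested genes, 481 of the 1205 called were higher and the rest lower. At an unadjusted p under 0.05 by edgeR, 8 of the 9 slow-fibre genes were higher (all genes, 11.3%). The median log2 fold change of the slow-fibre genes was 2.56. At the same level 6 fast-fibre, 3 adipocyte and 6 B cell genes were lower (all genes, 12.6%). No gene was called among 8 macrophage genes, though all lay below 0 and 6 at an unadjusted p under 0.05, nor among 5 Schwann cell genes, all below 0, nor among 8 smooth muscle and pericyte, 6 endothelial, 5 erythroid and 1 tested germ cell gene. In whole muscle, fewer cells or fibres of a type and less RNA per cell cannot be told apart. By quantitative PCR the study found selected immune genes no lower in AAV9-HSA-CAAHR muscle than in uninjected muscle. The study reads this as a local immune response to the AAV9-HSA-GFP treatment, so lower immune genes here may reflect the control group. That was not tested here.

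No nuclear OXPHOS subunit passed the test at an adjusted p of 0.05. With edgeR's quasi-likelihood test and Benjamini-Hochberg adjustment over all genes, 0 of the 83 tested members were called, against 7.6% of all 15847 tested genes. At an unadjusted p under 0.05 there were 7 members (8.43%), where 23.9% of all genes reached that level. Of the 7, 6 were higher in AAV9-HSA-CAAHR muscles (all genes, 11.3%) and 1 was lower (all genes, 12.6%). The 6 were Ndufa1, Ndufa6, Ndufa7 and Ndufb3 of complex I, Uqcr11 of complex III and Atp5h of complex V, and the 1 was Ndufs4 of complex I. The smallest adjusted p was 0.129, for Uqcr11. DESeq2 also called 0 members, and 8 reached its unadjusted 0.05.

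The differences were small and were bounded on both sides. Log2 fold changes (AAV9-HSA-CAAHR over AAV9-HSA-GFP) ran from -0.35 for Ndufs4 to 0.38 for Uqcr11, with a median standard error of 0.14. The 95% interval lay within a 2-fold change in either direction for 81 members (all genes, 70.8%) and within a 1.5-fold change for 69 members (all genes, 46.8%). The exceptions at 2-fold were Cox4i2 and Cox6b2, both near or below 1 CPM. Without a filter on low counts, 6 of 83 members passed an adjusted p of 0.05 by edgeR, as did 2470 of 28661 tested genes. The 6 were Ndufb3, Sdhb, Uqcr11, Atp5h and Ndufa6, higher, and Ndufs4, lower. With an offset for exonic length 4 of 83 members passed, as did 1317 of 15814 genes. The 4 were Ndufa1, Ndufa6, Ndufa7 and Uqcr11, all higher.

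**Figure D1:**
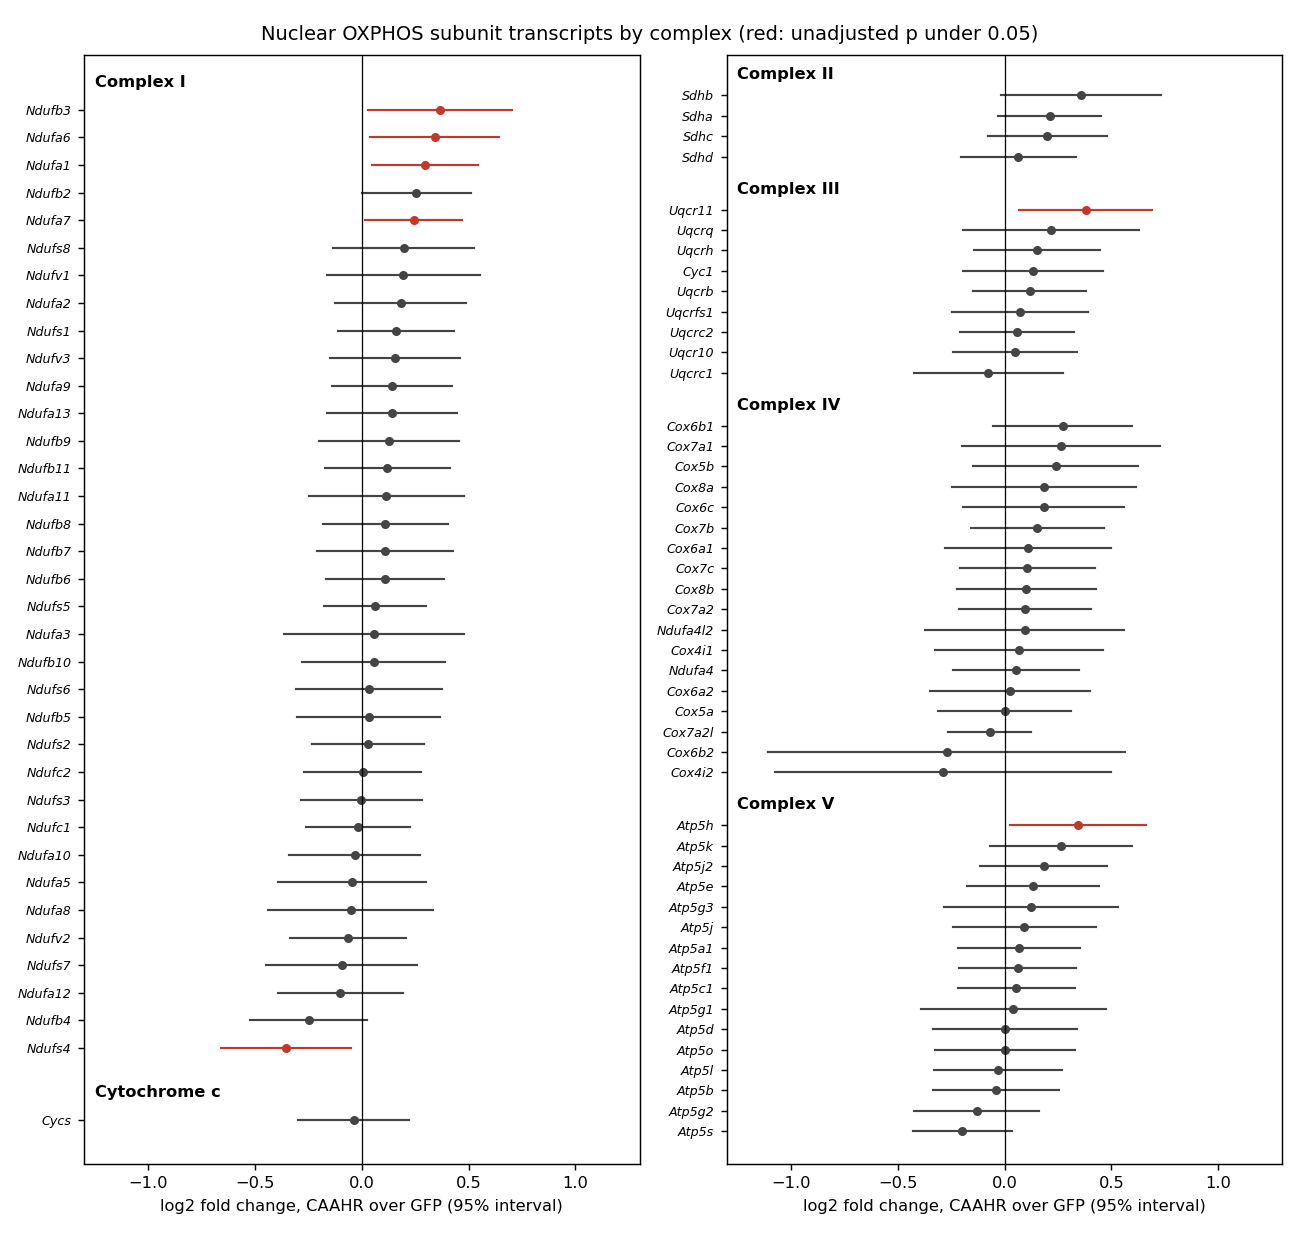
Log2 fold change of each of the 83 tested members (points) with its 95% interval (lines), by complex, on a common axis of AAV9-HSA-CAAHR over AAV9-HSA-GFP. Red marks the 7 members at an unadjusted p under 0.05; the interval of nearly every member crosses 0, and those of Cox4i2 and Cox6b2 are the widest.

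More members lay above 0 than below, but this depended on single libraries. The log2 fold change was above 0 for 64 of 83 members (77.1%) and for 51.2% of all genes. The count above 0 was 41 without GFP replicate 42, 45 without CAAHR replicate 36 and 43 under upper quartile scaling. The median was 0.094 over the members and 0.0086 over all genes, which is a difference of less than the 0.19 by which the members' median varied between libraries of a group (SD). By complex, the median was 0.11 for complex I (25 higher, 10 lower), 0.20 for complex II (4 higher, 0 lower), 0.12 for complex III (8 higher, 1 lower), 0.10 for complex IV (15 higher, 3 lower) and 0.058 for complex V (12 higher, 4 lower). The median turned below 0 in complex I without GFP replicate 42 (-0.0040), in complex IV without CAAHR replicate 36 (-0.013), and in complex V without CAAHR replicate 31 (-0.0059), without GFP replicate 42 (-0.011) or under upper quartile scaling (-0.015). With the slow-fibre level as a covariate, described below, the median lay below 0 in every complex, from -0.456 in complex IV to -0.25 in complex II. Cycs, the mobile cytochrome c, was at -0.038. Apart from scaling to the members' own median, described below, the choice of scaling moved the median of all genes between -0.064 and 0.090. The members' median moved with it. Leaving out GFP replicate 42 brought the members' median to -0.0012, and leaving out GFP replicate 46 brought it to 0.21.

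The libraries within a group differed more than the groups did, and the complexes moved together. As the median deviation of the members from their own means over all libraries, AAV9-HSA-CAAHR replicate 31 stood at 0.12, replicate 34 at -0.14 and replicate 36 at 0.19 on the log2 scale. The AAV9-HSA-GFP muscles stood at -0.25 in replicate 42, -0.058 in replicate 43 and 0.15 in replicate 46. Each group thus held at least 1 library above and 1 below the common mean, and the groups overlapped. The same sign was seen in each library for every one of complexes I to V. GFP replicate 42 was the lowest library for 61 of the 83 members and CAAHR replicate 34 for 17, while CAAHR replicate 36 was the highest for 35, GFP replicate 46 for 29 and CAAHR replicate 31 for 17. Neither CAAHR replicate 34 nor GFP replicate 42 was the highest library for any member.

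The summed share of counts showed the same overlap. Members made up 2.15%, 1.68% and 2.15% of counts in CAAHR replicates 31, 34 and 36, and 1.58%, 1.75% and 2.03% in GFP replicates 42, 43 and 46. The means were 2.0% ± 0.27 and 1.79% ± 0.23 (SD, n = 3), and the difference of 0.21 percentage points was below either SD.

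**Figure D2:**
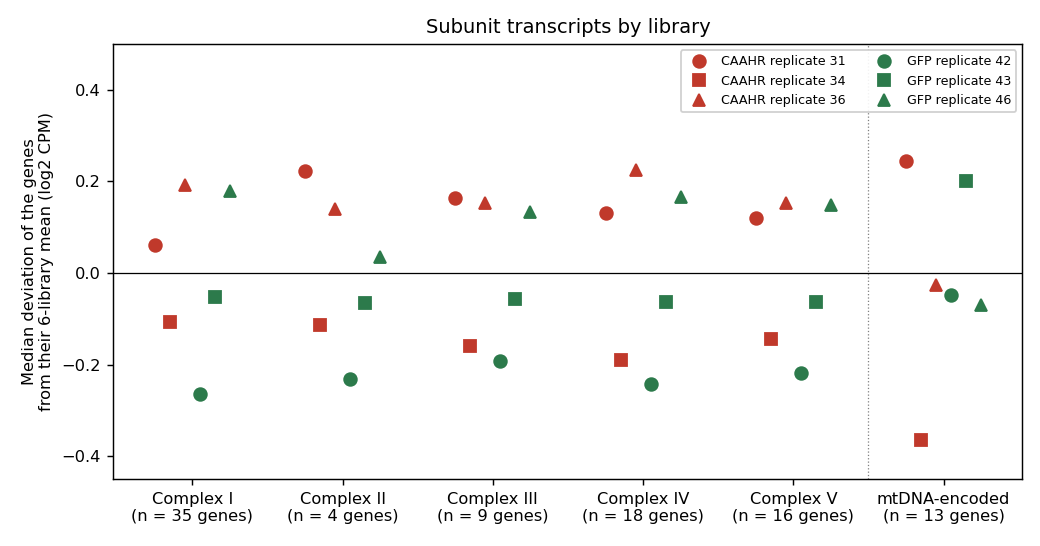
Median deviation of the genes of each complex from their mean over the 6 libraries (log2 CPM, y axis), with 1 point per library; red marks AAV9-HSA-CAAHR and green AAV9-HSA-GFP muscles. CAAHR replicate 34 and GFP replicates 42 and 43 lie below 0 and the other libraries above it in complexes I to V, while the mtDNA-encoded genes at the right follow another order.

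Some marker genes of other fibres and cells moved with the members across libraries. Myh2, the myosin of oxidative fast fibres, had 4459, 1334 and 5136 CPM in CAAHR replicates 31, 34 and 36 and 469, 1191 and 2536 CPM in GFP replicates 42, 43 and 46. The 3 libraries with the most Myh2 were those in which the members lay above their mean. The summed slow-fibre genes, all 9 of which had a log2 fold change above 0, ranged from 648.8 to 2783 CPM in AAV9-HSA-CAAHR muscles and from 228.1 to 461.3 CPM in AAV9-HSA-GFP muscles. Across the groups their order was not that of the members. CAAHR replicate 34 had more slow-fibre transcripts than GFP replicate 46 (649 against 461 CPM) and lower OXPHOS transcripts (-0.14 against 0.15). Within the GFP group the order was the same, with 228.1, 332.6 and 461.3 CPM of slow-fibre transcripts in replicates 42, 43 and 46. Within the CAAHR group replicate 34 was the lowest in both. The 10 fast-fibre genes did not follow the members, at -0.49, 0.051 and -0.24 in CAAHR replicates 31, 34 and 36 and 0.21, 0.23 and 0.29 in GFP replicates 42, 43 and 46 (median deviation, log2). The 5 erythroid genes followed them in sign but not in full order. Their median deviation was 0.62, -0.55 and 0.53 in the same CAAHR libraries and -0.58, -0.20 and 0.18 in the GFP libraries, so that it had the members' sign in all 6. It was highest in CAAHR replicate 31, whereas that of the members was highest in CAAHR replicate 36. By sign alone, the 9 slow-fibre genes matched the members in every library except GFP replicate 46 (-0.82). The 6 endothelial genes matched in every library except GFP replicate 42 (0.041). Of these lists, the erythroid genes are taken up next. Summed, the erythroid genes ranged from 100.3 to 226.5 CPM in AAV9-HSA-CAAHR and from 100.8 to 185.5 CPM in AAV9-HSA-GFP muscles, and none was at 0. With the slow-fibre level as a covariate, which is itself aligned with the groups, the members' median log2 fold change was -0.34, 82 of 83 members lay below 0, 29 reached an unadjusted p under 0.05, and only Ndufs4 was called (log2 fold change -0.84, adjusted p = 0.0373 with edgeR). The same fit called 436 of all 15847 tested genes. The part of fibre type and blood in the members' levels was not tested beyond this covariate.

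**Figure D3:**
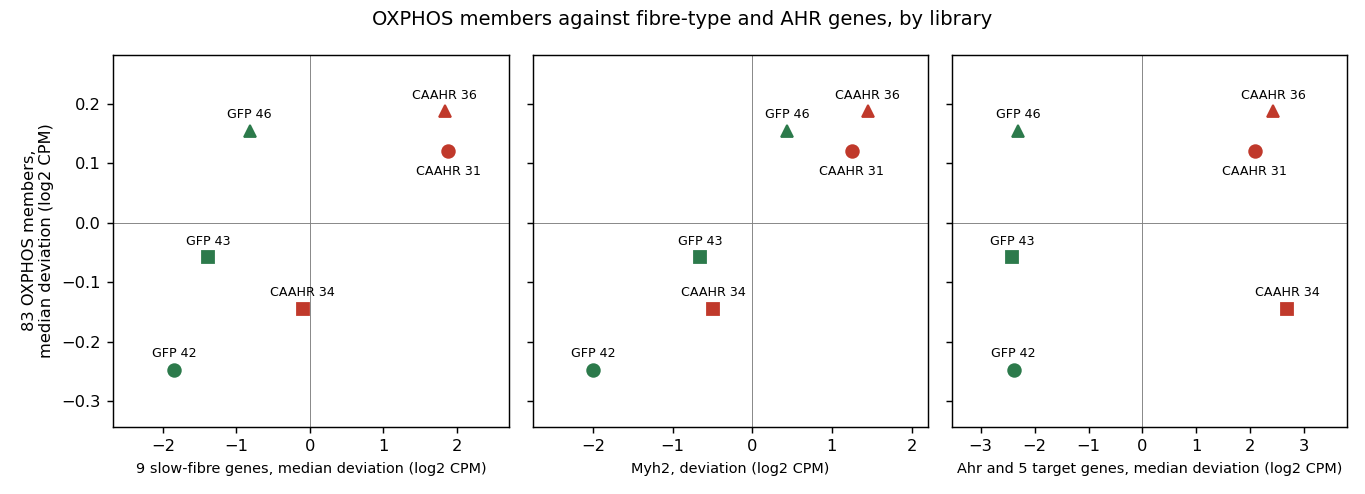
Median deviation of the 83 members (y axis, log2 CPM) against that of 9 slow-fibre genes (left), Myh2 (middle) and Ahr with 5 of its targets (right), 1 point per library. The AHR genes separate the groups while the members overlap, and the libraries with the most Myh2 have the highest members.

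The promoters of the members at the ends of the range were read for the letters that AHR and known regulators of OXPHOS genes bind. Windows of 300 bases, 250 before and 50 after the annotated start, were taken from RefSeq on GRCm38.p6 and matched 69 of 85 members. Shown are Ndufs4 and Uqcr11, the members with the lowest and highest log2 fold change, and Sdhb, the complex II subunit with the highest, each 5′ to 3′ along its gene. Capitals mark GCGTG (the core of the AHR response element), GCGCATG (nuclear respiratory factor 1, NRF1), CCGGAAG (ETS factors such as GABP), AAGGTCA (oestrogen-related receptors) and AAGATGG (YY1), on either strand.
Ndufs4 (chr13:114388045-114388344, minus strand): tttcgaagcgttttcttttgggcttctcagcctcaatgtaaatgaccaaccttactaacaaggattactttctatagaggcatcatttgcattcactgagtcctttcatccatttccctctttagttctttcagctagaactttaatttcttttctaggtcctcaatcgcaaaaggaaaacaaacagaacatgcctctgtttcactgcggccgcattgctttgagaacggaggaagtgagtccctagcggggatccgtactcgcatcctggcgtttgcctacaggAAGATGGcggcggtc
Uqcr11 (chr10:80406772-80407071, minus strand): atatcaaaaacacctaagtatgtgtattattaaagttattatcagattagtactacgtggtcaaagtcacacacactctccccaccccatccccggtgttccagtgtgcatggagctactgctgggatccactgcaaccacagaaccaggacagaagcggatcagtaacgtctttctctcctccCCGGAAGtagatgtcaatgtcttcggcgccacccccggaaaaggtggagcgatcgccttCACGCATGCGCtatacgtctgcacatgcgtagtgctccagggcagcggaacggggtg
Sdhb (chr4:140961021-140961320, plus strand): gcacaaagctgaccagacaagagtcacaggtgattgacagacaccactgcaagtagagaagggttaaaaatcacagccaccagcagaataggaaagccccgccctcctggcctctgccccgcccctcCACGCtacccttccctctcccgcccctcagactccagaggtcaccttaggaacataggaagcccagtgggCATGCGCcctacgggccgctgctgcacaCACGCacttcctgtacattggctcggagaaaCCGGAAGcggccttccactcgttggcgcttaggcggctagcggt
The Ndufs4 window held AAGATGG alone, downstream of the start, and no GCGTG. The Uqcr11 window held 1 match each to the AHR, NRF1 and ETS letters, of which the first pair shared a base. The Sdhb window held 2 matches to GCGTG and 1 each to GCGCATG and CCGGAAG.

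Across the 74 member windows, GCGTG was found in 54.1% (32.4% of all 32851 windows), CCGGAAG in 21.6% (8.86%), GCGCATG in 18.9% (3.91%), AAGATGG in 14.9% (6.34%) and AAGGTCA in 10.8% (4.72%). The median log2 fold change was 0.097 over the 38 members with GCGTG and 0.061 over the other matched members, and 0.14 over the 16 with CCGGAAG against 0.055 over the rest. These medians are descriptions and were not tested. All of the letters listed were more frequent in member windows, and the windows were not matched for base composition. A match describes letters and not a bound site.

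Complex I holds the largest share of members. Its N module oxidises NADH, its Q module reduces ubiquinone and its membrane arm pumps protons. The median log2 fold change was 0.16 over the 10 N-module members, 0.015 over the 6 Q-module members and 0.11 over the 19 membrane-arm members, and the Q module alone had as many members below 0 as above it (3 and 3).

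Ndufs4 (ENSMUSG00000021764, chr13:114287795-114388258, GRCm38) encodes an accessory N-module subunit needed for a stable complex I, whose loss causes a Leigh-like disease. Its level was 80.9, 62.1 and 74.3 CPM in CAAHR replicates 31, 34 and 36 and 78.4, 93.7 and 105 CPM in GFP replicates 42, 43 and 46. The groups overlapped through CAAHR replicate 31 and GFP replicate 42. The mean was 72.4 ± 9.55 against 92.5 ± 13.6 CPM (SD, n = 3), a log2 fold change of -0.35 ± 0.14 (SE), with an adjusted p of 0.148 by edgeR. This was the lowest log2 fold change of any member.

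The complex I members at the upper end were from the membrane arm and the N module. Ndufb3 (ENSMUSG00000026032, chr1:58586384-58595964), a membrane-arm subunit, had 83.2, 64.4 and 85.6 CPM in AAV9-HSA-CAAHR muscles and 50.4, 59.4 and 71.1 CPM in AAV9-HSA-GFP muscles. Ndufa6 (ENSMUSG00000022450, chr15:82350140-82354322), which binds the acyl carrier protein, had 117, 99.0 and 131 against 80.2, 87.9 and 105 CPM. In both, GFP replicate 46 exceeded CAAHR replicate 34, so the groups overlapped. Ndufa1 (ENSMUSG00000016427, chrX:37187588-37191163), an X-linked membrane-arm subunit, had 45.9, 41.7 and 48.9 against 34, 34.9 and 42.2 CPM and overlapped by the same pair of libraries. Ndufa7 (ENSMUSG00000041881, chr17:33824572-33838317) had 67.8, 61.5 and 74.6 against 53.2, 59.5 and 59.4 CPM, with every CAAHR library above every GFP library. Log2 fold changes were 0.37, 0.34, 0.30 and 0.24 for Ndufb3, Ndufa6, Ndufa1 and Ndufa7, with adjusted p of 0.176, 0.157, 0.137 and 0.179 by edgeR. Ndufb8, an assembly-sensitive membrane-arm subunit often probed on immunoblots, had 192 ± 20.3 against 178 ± 25.5 CPM.

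Over all complexes, groups did not overlap with AAV9-HSA-CAAHR higher for 3 members, Ndufa7, Sdha and Uqcr11 (15% of all genes), or with AAV9-HSA-CAAHR lower for 1, Atp5s (14.9% of all genes). Both shares, 3.61% and 1.2% of tested members, were below those of all genes.

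All 4 complex II genes were higher on average in AAV9-HSA-CAAHR muscles, and none passed the test. Sdhb (ENSMUSG00000009863, chr4:140961203-140979193), the iron-sulphur subunit, had 356, 260 and 352 CPM in CAAHR replicates 31, 34 and 36 and 204, 257 and 294 CPM in GFP replicates 42, 43 and 46. Only CAAHR replicate 34 fell among the GFP libraries. Its log2 fold change was 0.36 ± 0.17 (SE; edgeR adjusted p = 0.23). Sdha (ENSMUSG00000021577, chr13:74322254-74350280), the flavoprotein that oxidises succinate, had 860, 757 and 848 against 686, 725 and 719 CPM, with no overlap, a log2 fold change of 0.21 ± 0.11 and an adjusted p of 0.269 by edgeR. The membrane anchors Sdhc and Sdhd had log2 fold changes of 0.20 and 0.065. CAAHR replicate 31 was the highest and GFP replicate 42 the lowest library for all 4 genes.

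In complex III, Uqcr11 had the highest log2 fold change, and no test compared it with the catalytic subunits. Uqcr11 (ENSMUSG00000020163, chr10:80402997-80406830), a small subunit, had 130, 118 and 163 CPM in CAAHR replicates 31, 34 and 36 and 92.2, 107 and 116 CPM in GFP replicates 42, 43 and 46. The groups did not overlap, though CAAHR replicate 34 and GFP replicate 46 lay close together. The log2 fold change was 0.38 ± 0.14 (SE; edgeR adjusted p = 0.129). Uqcrfs1, the Rieske iron-sulphur protein, and Cyc1, cytochrome c1, carry electrons and had log2 fold changes of 0.072 and 0.13. The core proteins Uqcrc1 and Uqcrc2 were at -0.075 and 0.057, and Uqcrc1 had the lowest log2 fold change of the complex. Cycs had 250, 224 and 259 against 220, 276 and 255 CPM, with overlapping groups, and shares 24.7% of its 100-base windows with other annotated transcripts.

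No complex IV member reached an unadjusted p under 0.05. The highest was Cox6b1, which joins the monomers of the dimer, with 203, 146 and 187 against 129, 147 and 167 CPM and a log2 fold change of 0.27 ± 0.14 (SE; edgeR adjusted p = 0.29). CAAHR replicate 34 fell below GFP replicates 43 and 46. All 11 ubiquitous or single-isoform members had a log2 fold change above 0, although that of Cox5a was only 0.00021. Without CAAHR replicate 34, Cox8a alone of all members was called (log2 fold change 0.39, edgeR adjusted p = 0.0434). In that fit 1727 of 16180 tested genes were called. The lowest was Cox4i2, an isoform of low abundance in muscle, at 1.07 ± 0.37 against 1.3 ± 0.47 CPM.

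The ratio of each muscle isoform to its ubiquitous partner overlapped between the groups. Per kilobase of the principal transcript, Cox6a2 was 25.5 ± 1.91 times Cox6a1 in AAV9-HSA-CAAHR muscles and 26.9 ± 1.95 times in AAV9-HSA-GFP muscles (SD, n = 3). Cox8b was 15.4 ± 3.60 and 15.6 ± 1.75 times Cox8a, and Cox7a1 was 2.97 ± 0.23 and 2.64 ± 0.24 times Cox7a2. The adult muscle isoform was thus the larger of each pair in every library. Cox4i2 stood at 0.00187 ± 0.00041 and 0.00247 ± 0.00090 of Cox4i1, and Ndufa4l2, the hypoxia-inducible relative of Ndufa4, at 0.0141 ± 0.0017 and 0.0138 ± 0.0019 of Ndufa4. The differences in log2 ratio were -0.078, -0.041, 0.17, -0.35 and 0.033 for the Cox6a, Cox8, Cox7a, Cox4i and Ndufa4 pairs, with two-sided exact permutation p from 0.3 to 0.9 (0.875 to 0.9 after Benjamini-Hochberg adjustment over 7 pairs). With 3 libraries against 3, the smallest p this test can give is 0.1.

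**Figure D4:**
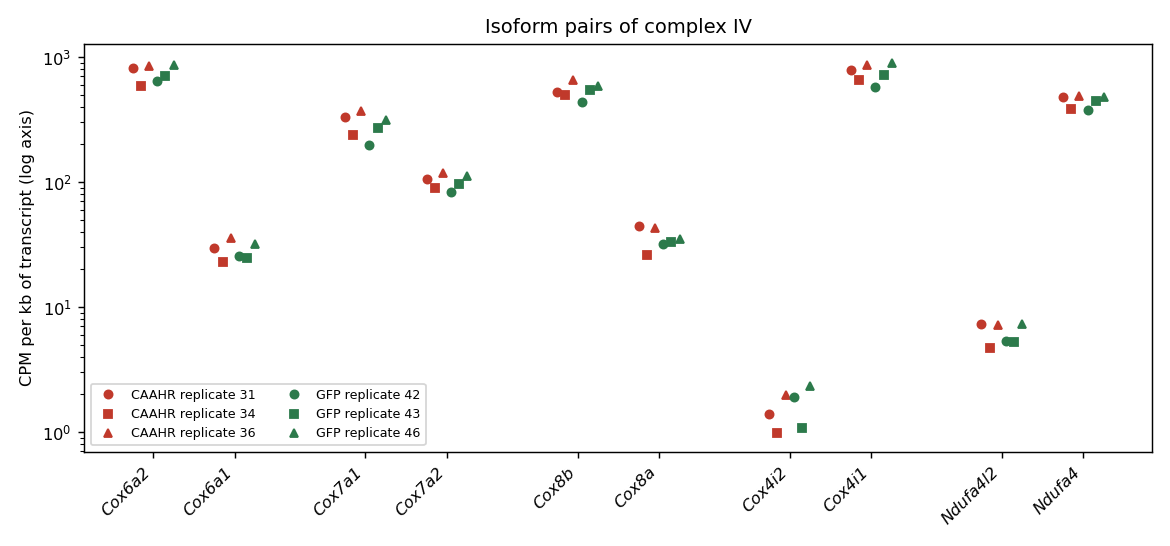
Level of each isoform (CPM per kb of the principal transcript, log axis) in the 6 libraries, grouped by pair. Cox6a2, Cox7a1 and Cox8b lie above their ubiquitous partners in every library, and the groups overlap for all 10 genes.

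In complex V the catalytic head was close to 0 difference. Atp5b and Atp5a1, the beta and alpha subunits that bind nucleotides, had 2038 ± 211 against 2097 ± 201 CPM and 1860 ± 173 against 1775 ± 169 CPM, with log2 fold changes of -0.041 and 0.068. Their 95% intervals were -0.34 to 0.25 and -0.22 to 0.35. Per kilobase Atp5b was the most abundant complex V member, at 1064 ± 110 and 1095 ± 105. By log2 fold change the highest complex V member was Atp5h (ENSMUSG00000034566, chr11:115415689-115419962), a peripheral-stalk subunit. It had 246, 196 and 251 against 156, 178 and 212 CPM. Its log2 fold change was 0.34 ± 0.14 (SE; edgeR adjusted p = 0.175), with CAAHR replicate 34 below GFP replicate 46, and 29.5% of its 100-base windows occur in another annotated transcript. Atp5s had 12.3, 11.4 and 10.6 against 13.3, 12.8 and 13.3 CPM, with no overlap, a log2 fold change of -0.20 and an edgeR adjusted p of 0.278.

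The 3 c-ring genes encode the same mature protein from different precursors. Atp5g1 had 366 ± 65.8 CPM in AAV9-HSA-CAAHR and 356 ± 85.4 CPM in AAV9-HSA-GFP muscles, Atp5g2 had 116 ± 16.3 and 127 ± 15.5 CPM, and Atp5g3 had 331 ± 63.8 and 303 ± 59.3 CPM (SD, n = 3). Their levels were not ranked per length, because the annotated principal transcript of Atp5g1 (4715 bases, against 731 and 723 for Atp5g2 and Atp5g3) would decide the order. The log2 ratio to Atp5g3 differed between groups by -0.25 for Atp5g2 and -0.071 for Atp5g1, with exact permutation p of 0.3 and 0.7.

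**Figure D5:**
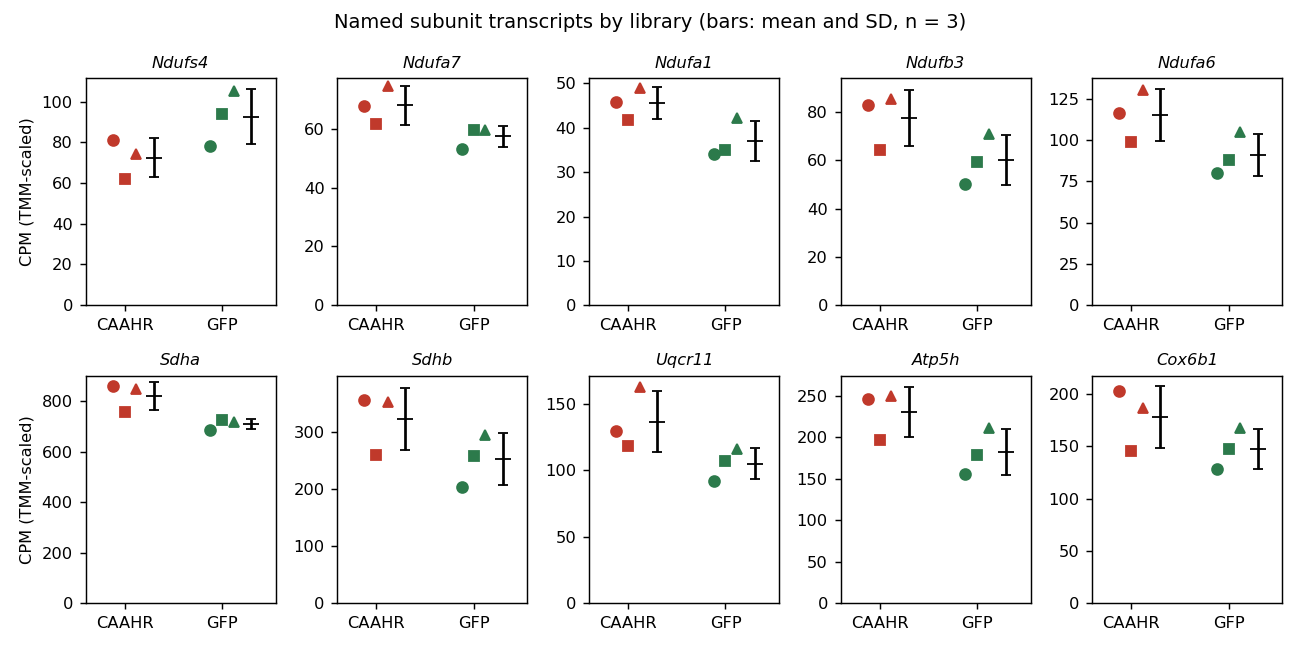
TMM-scaled CPM (y axis, from 0) of 10 members in each library, with circles, squares and triangles for replicates 31, 34 and 36 (red, AAV9-HSA-CAAHR) or 42, 43 and 46 (green, AAV9-HSA-GFP), and the mean and SD of 3 libraries as bars. Ndufs4 is lower in the AAV9-HSA-CAAHR mean and the other 9 higher, and only Ndufa7, Sdha and Uqcr11 have groups that do not overlap.

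Since all complexes moved together from library to library, members were also compared after each library was set to the median of the tested members, a scaling chosen after seeing the data. By construction this removes the library-to-library shift that the members share and adds it to every other gene, so the share over all genes on this scale is no yardstick and nothing is read from it. On this scale, 15 members were higher in every CAAHR library than in any GFP library (18.1%, all genes 5.21%), and 6 were lower (7.23%, all genes 12.7%). Ndufs4 was -0.12, -0.25 and -0.28 in CAAHR replicates 31, 34 and 36 and 0.20, 0.25 and 0.19 in GFP replicates 42, 43 and 46 (log2, relative to the member median), a difference of -0.43 with no overlap. Uqcr11, Ndufb3, Sdhb, Atp5h and Ndufa6 were at the upper end, with differences of 0.30, 0.29, 0.28, 0.27 and 0.27. Below 0 with no overlap beside Ndufs4 were Ndufb4 (-0.32), Atp5g2 (-0.21), Uqcrc1 (-0.14), Ndufv2 (-0.135) and Cox5a (-0.070), and 33.4% of the windows of Ndufb4 occur in another transcript. The edgeR test on this scale called 0 of 83 members, and Ndufs4 alone reached an unadjusted 0.05 (log2 fold change -0.45, adjusted p = 0.231).

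The mtDNA-encoded subunits had another order of libraries than the nuclear ones. None of the 13 was called by edgeR, 0 reached an unadjusted 0.05, and 5 lay above 0, with a median log2 fold change of -0.028. Their share of counts was 12.1%, 7.82% and 9.02% in CAAHR replicates 31, 34 and 36 and 8.83%, 9.88% and 8.59% in GFP replicates 42, 43 and 46. CAAHR replicate 34 was lowest, and GFP replicate 43, below the mean for the nuclear members, was the second highest. Transcripts such as mt-Co1 were at 30770 to 46130 CPM, but mt-Co2 was at 6.70 to 10.1 CPM. Also low were mt-Co3, mt-Atp6, mt-Atp8, mt-Nd3 and mt-Nd4l, from 3.10 CPM (mt-Atp8) to 67.25 CPM (mt-Nd3) over the libraries. The calls and the median given above include these low genes. Levels were not compared between mtDNA genes, and the cause of their differences was not tested.

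Assembly factors build the complexes without staying in them. Of 50 listed, 47 were tested, 2 were called higher and 1 lower, a share near the 7.6% of all genes. Cox19, a copper-handling factor for complex IV, had 39.6, 37.1 and 48.1 CPM in CAAHR replicates 31, 34 and 36 and 22, 22.2 and 25.3 CPM in GFP replicates 42, 43 and 46. It rose by a log2 fold change of 0.84 ± 0.12 (SE; edgeR adjusted p = 0.00336), and the groups were well apart. Cox17, the copper chaperone of complex IV, rose by 0.36 ± 0.094 (18.3 ± 0.50 against 14.3 ± 0.81 CPM; edgeR adjusted p = 0.0489). Ndufaf6, a complex I assembly factor that the study itself singled out in these samples and whose direction is thus not independent evidence, was 14.4, 13.1 and 13.1 against 16.7, 19.6 and 19.3 CPM, a log2 fold change of -0.46 ± 0.10 with an edgeR adjusted p of 0.0302. In fits that left out 1 library, Cox19 was called in 6 of 6, Ndufaf6 in 2 of 6 (adjusted p 0.0323 to 0.115, edgeR; lost without CAAHR replicate 31 or 36 or GFP replicate 43 or 46) and Cox17 in 0 of 6 (adjusted p 0.064 to 0.171, edgeR). With the slow-fibre covariate none of them was called (edgeR adjusted p of 0.182 for Cox19, 0.519 for Cox17 and 0.163 for Ndufaf6). By the same test, the Cox17 call was also lost under DESeq2 size factors (0.0539) and upper quartile scaling (0.097). It was lost as well with a filter of at least 10 counts in every library (0.0535). The Ndufaf6 call was also lost under library size alone (0.0587) and the length offset (0.0779). Both calls were lost when scaled to the members' median (0.686 and 0.101).

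Regulators of OXPHOS genes gave no call among 16 tested, and 4 reached an unadjusted 0.05, near the 23.9% of all genes. All 4 were higher in AAV9-HSA-CAAHR muscles (all genes, 11.3%). Ppara, Esrrb and Esrrg, nuclear receptors of oxidative metabolism, had log2 fold changes of 1.94, 1.69 and 1.61 (edgeR adjusted p of 0.109, 0.159 and 0.148), with CAAHR replicate 34 far below replicates 31 and 36 in each, for example 3.41 against 12.7 and 13.4 CPM of Ppara. In the slow-fibre genes, too, CAAHR replicate 34 was far below replicates 31 and 36 (Myh7, 156 against 877 and 809 CPM). The part of fibre type in the differences of these receptors was not tested. Gabpa, a subunit of the ETS factor GABP, was at 0.35 (adjusted p = 0.0653 by edgeR), and its exons overlap those of the member Atp5j on the opposite strand. Ppargc1a, the coactivator PGC-1alpha, had 22.5 against 27.4 CPM on average (log2 fold change -0.29, edgeR adjusted p = 0.304). DESeq2 called 3 of the 16 (Esrrg, Gabpa and Ppara), and edgeR without CAAHR replicate 34 also called 3 (Esrrb, Esrrg and Ppara). Both fits called more of all genes, 1923 of 15847 and 1727 of 16180, against 1205 of 15847 as reported.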

How the data were processed

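Gastrocnemius RNA from 3 AAV9-HSA-CAAHR and 3 AAV9-HSA-GFP libraries was analysed. As described by the authors, poly(A) RNA was sequenced as paired ends, trimmed with Trimmomatic 0.36 and aligned to GRCm38 with STAR 2.5.2b. The deposited values were raw counts per gene of unique reads in exons (featureCounts), not normalised or pooled. Whether counting used strand was not stated, so the 29 members whose exons overlap another gene, and the 20 that share 100-base windows with another transcript, carry some uncertainty.

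Genes were filtered with filterByExpr and scaled by TMM in edgeR 4.0.16 (R 4.3.3), and the robust quasi-likelihood test compared the groups, with p-values adjusted over all 15847 tested genes at 0.05. Reported levels are TMM-scaled CPM. Levels between genes were compared per kilobase of the principal transcript in GENCODE for GRCm38. Standard errors and 95% intervals came from the F statistic. Deviations used log2 CPM with a prior count of 2. Isoform ratios were compared with exact permutation tests (SciPy 1.17.1). Within a group, no library repeated another (chi-square divided by its degrees of freedom of 21.6 or more for each pair). The labels number the libraries without naming the animals, so p-values measure the spread between these libraries. The 174 rows without a symbol were kept as genes. The code was tested on simulated data.

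Alternatives covered scaling, filters, DESeq2 1.42.0, limma-voom (limma 3.58.1), a slow-fibre covariate, a length offset and leaving out each library. Named members were those at an unadjusted p under 0.05, the highest and lowest of each complex, the Sdh genes, Cyc1, Cycs, Uqcrfs1, the isoform pairs, Atp5b, subunits often probed on immunoblots and members that failed the filter; members named for their rank after library scaling, or beside another result, were chosen after their values were seen. The members and gene lists were chosen with earlier results of these data known.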

Additional observations from a re-analysis of the deposited data

How the results depend on the processing

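Against 0 members called and 7 at an unadjusted p under 0.05 by edgeR, upper quartile scaling gave 0 and 3, library size alone 0 and 11, limma-voom 0 and 12, scaling to the members' median 0 and 1, no filter on low counts 6 and 14, the exonic length offset 4 and 17, and the slow-fibre covariate 1 and 29. Of all 15847 tested genes, 1205 were called as reported, 1348 with upper quartile scaling, 1476 with library size alone and 1402 with limma-voom. Scaling to the members' median called 1187 and the slow-fibre covariate 436 of the same 15847. Without a filter 2470 of 28661 were called, and with the length offset 1317 of 15814. Leaving out 1 library gave 0 to 1 called members (1 without CAAHR replicate 34, where 1727 of 16180 genes were called) and 1 to 14 at the unadjusted level, with 14 without CAAHR replicate 34 or GFP replicate 46 and 1 without GFP replicate 43. The medians moved by more than 1 SD under the covariate alone, to -0.342 over all members and -0.294, -0.25, -0.362, -0.456 and -0.335 in complexes I to V. Named members that turned below 0 under it, at an unadjusted p under 0.05 there or as reported, were Atp5g1 (-0.614), Atp5g3 (-0.598), Atp5h (-0.159), Cox4i1 (-0.507), Cox6a1 (-0.538), Cox6a2 (-0.656), Cox7a1 (-0.519), Cox8a (-0.668), Ndufa1 (-0.00163), Ndufa4 (-0.393), Ndufa4l2 (-0.735), Ndufa6 (-0.119), Ndufa7 (-0.0215), Ndufb3 (-0.207), Uqcr11 (-0.0401) and Uqcrfs1 (-0.465). In all, 81 of 544 checks of 34 named members changed sign. Called assembly factors numbered 1 to 2, against 3, with 1 library left out. Called regulators went from 0 to 1 with library size alone, 3 with DESeq2 (which called 1923 of all 15847 genes) and 0 to 3 with 1 library left out. The causes were not tested. Isoform ratios and the share of counts moved by less than 1 SD throughout. Scaling to the members' median was chosen after seeing the data. No paired analysis was possible because no replicate number occurs in both groups.

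With 3 libraries per group, the median standard error of a member's log2 fold change was 0.14. The members with the fewest counts, Cox4i2 and Cox6b2, had the widest intervals, and what limited their precision was not tested.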
